A study of Mus musculus with 36 samples.

Results

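Liver RNA of wild type mice from the loop tail (Lp) line was compared with liver RNA of C57BL/6J (B6) wild type mice, 4 mice and 4 arrays in each group, which are 8 of the 36 arrays of the series. The arrays were chosen by their titles. Loop tail is a mutation of Vangl2, a membrane protein of planar cell polarity, but the mice compared here did not carry it: the Lp wild type mice (strain Vangl2Lp) were the controls of the Lp heterozygotes, and the B6 mice were the controls of both the Pax3Sp2H and the Apobtm1Unc heterozygotes. All were females of 6 to 8 weeks that had been fasted for 4 to 5 hours. The labels describe each array as a biological replicate, and they give no background stock for the Lp line, no time of day and no scan batch. Strain, colony and day of dissection therefore cannot be told apart from the line in this comparison. Lp heterozygotes, Pax3Sp2H heterozygotes and Apobtm1Unc heterozygotes, 12 arrays of other mice of the same sex and age, served as a second look at differences between the Lp line and the lines that have B6 controls. Each of those 3 groups carries a mutation of its own. Although every mouse is labelled female, 12 genes with higher expression in female than in male liver differed among these arrays: with B6 set to 0, their mean log2 level was -2.19, -0.60, -3.62 and -2.12 in the Apob heterozygotes, -2.14 in Pax3 heterozygote replicate 3, -1.18 in Lp heterozygote replicate 4 and -0.39 to 0.23 in the other 6. All 12 were higher in the heterozygote contrast (median 1.06, none called by limma, 4 with an unadjusted p below 0.05, as had 2791 of 13184 genes), and the part of this in that contrast was not tested. On the compared arrays the mean of the 12 genes was -0.22, -0.61, -1.05 and -0.45 in Lp wild type mice and -0.28 to 0.23 in B6 mice. In Lp wild type minus B6, 9 of the 12 were lower and 3 higher (median -0.28), and none was called.

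Inbred and mixed mouse stocks differ in liver expression for more than 1 reason. Some genes carry regulatory or structural variants, so that the transcript is high or low in every mouse of a stock whatever its state. Other liver genes follow the hour of the day, feeding and fasting: the circadian clock drives rhythmic transcripts through the Per, Cry and Nr1d repressors and the activators Clock and Arntl, and the nuclear receptor PPAR alpha turns on fatty acid oxidation in fasting. On an oligonucleotide array a sequence variant under the probes can also change the signal with no change in transcript, and it then touches a single probe set of a gene.

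Values are MAS5 signals, the scaled linear intensity of a probe set (a group of oligonucleotide probes for 1 transcript region), and differences are log2(signal + 23) in Lp wild type minus B6 with the standard error of a limma fit over 34 arrays. A signal of about 61 is the lower limit for testing, and near it the offset of 23 compresses a difference. Each of 13184 tested genes was represented by its probe set of highest mean, and it was called where the p, adjusted over all of them by Benjamini and Hochberg, was below 0.05. The 3' to 5' ratio of the GAPDH control ran from 0.729 to 0.956 on those 34 arrays, and the 2 arrays above 1.5 (CBA replicate 4 and ct replicate 3) were left out. By the pyruvate carboxylase control the ratio was 26.59 on B6 replicate 3, which was kept, and 26.37 on ct replicate 3. All 8 compared arrays correlated with each other at 0.947 to 0.976. The hepatocyte transcripts Alb and Apoa1 were at 45660 and 64980 in Lp wild type mice and at 53660 and 68760 in B6 mice, and neither was called.

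In all, 722 of 13184 genes were called (5.48%), 371 higher (2.81%) and 351 lower (2.66%) in Lp wild type mice. The median difference of all genes was 0.04. The 4 Lp values lay wholly above or wholly below the 4 B6 values in 1591 genes (12.1%), higher in 868 (6.58%) and lower in 723 (5.48%), and 620 of the 722 were among them. A difference of at least 1, a doubling or halving, was reached by 107 called genes that were higher and 134 that were lower, and a difference of at least 2 by 7 and 20. The count rests on the arrays in the fit. With the 2 poor arrays included it was 272, all of them among the 722, and it was 454 without B6 replicate 1, 477 without B6 replicate 2, 456, 473 and 456 without Lp wild type replicates 1, 2 and 3. Vangl2 itself read 43.24, 244.1, 201.3 and 274 on the Lp wild type arrays and 157.8 to 234.7 on the B6 arrays, with a difference of -0.34 ± 0.29 (limma adjusted p = 0.58). The groups overlapped, and the sign turned without Lp wild type replicate 1 (0.16). None of the 22 tested genes among the 30 nearest to Vangl2 in gene order was called by limma.

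Of the 15 largest increases, Crym, Tmem87a, Zfp979 and St6galnac5 had B6 means below the lower limit for testing, and the other 11 had B6 means above it. Crym, which encodes mu-crystallin, a thyroid hormone binding protein of the cytosol, read 622.4, 623.6, 697.5 and 670.4 in Lp wild type mice and 16.17, 50.71, 97.76 and 67.81 in B6 mice. Its difference was 3.17 ± 0.34 (limma adjusted p = 1.3e-07). Tmem87a, a membrane protein of the Golgi, read 396.4, 449, 311.1 and 305.4 against 17.13, 57.53, 18.61 and 10.32 (3.06 ± 0.39). Every Lp value of both genes was several times the highest B6 value. Zfp979, a zinc finger gene, read 111 to 261.5 against 2.517 to 9.077 (2.67 ± 0.32). Corin, the protease that activates atrial natriuretic peptide, read 353.9, 700.3, 1022 and 822.4 against 40.82 to 137.7 (2.63 ± 0.40), and Asic5, a bile acid sensitive ion channel, read 695.9 to 1235 against 134.5 to 251.5 (2.38 ± 0.35). The rule that named these genes took those whose groups do not overlap. The other increases among the 15 largest ran from 1.70 (St6galnac5, a sialyltransferase) to 2.27 (Wdfy1), and included Prelid2 (2.07 ± 0.18), Ocel1 (1.86 ± 0.18), Sntg2, a syntrophin (1.82 ± 0.23), and Vcpkmt, a lysine methyltransferase (1.80 ± 0.21).

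The largest decreases held genes of very different function. Slc1a2, a glutamate transporter, read 97.2, 401.2, 334.8 and 278.4 in Lp wild type mice and 2247, 2989, 4678 and 1746 in B6 mice (-3.33 ± 0.49, limma adjusted p = 3.1e-05). Efhd2, a calcium-binding protein, read 818.1, 651, 838.3 and 1102 against 5748, 7545, 7266 and 6047 (-2.94 ± 0.19, adjusted p = 1e-12). Pttg1, the securin that holds separase inactive until anaphase, read 1552, 1462, 1278 and 2306 against 8573, 8217, 10940 and 7926 (-2.44 ± 0.21). In these 3 genes the highest Lp value was well under the lowest B6 value. Ccnf, a cyclin that serves as an F-box protein, read 32.06 to 78.82 against 279.4 to 824.2 (-2.62 ± 0.39). Csad, an enzyme of taurine synthesis, read 380.6, 735.1, 647.3 and 1466 against 1738 to 6530 (-2.42 ± 0.48). Tmem267 (-2.73 ± 0.32), the long noncoding gene C730036E19Rik (-2.75 ± 0.40) and A2ml1, a protease inhibitor (-2.47 ± 0.44), were lower as well.

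**Figure D1:**
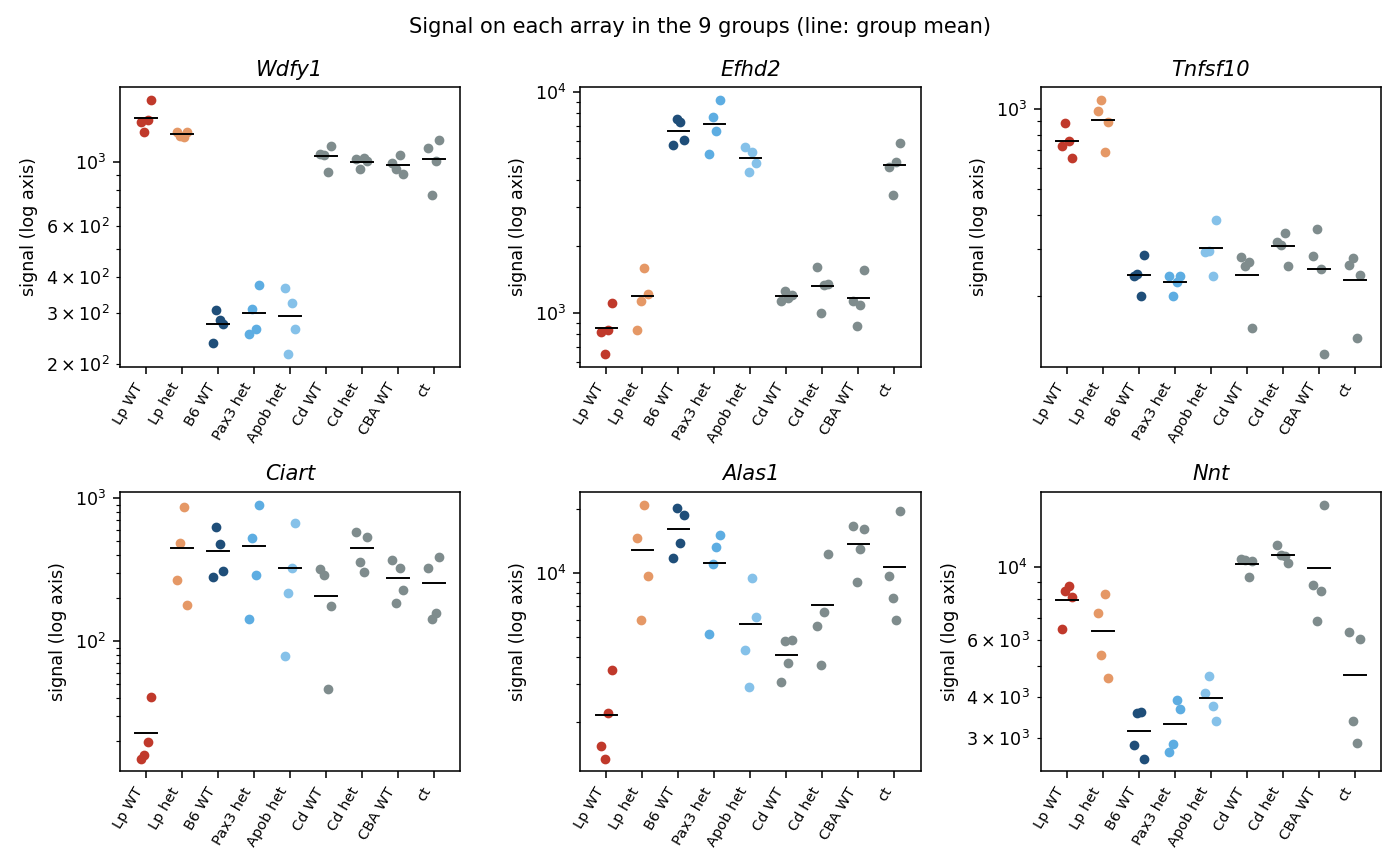
Signal of 6 genes on each of the 36 arrays, 4 per group, on a logarithmic axis with the group mean as a line; red and orange are the Lp groups, dark and light blue are B6 and the lines with B6 controls, and grey are the other groups. Wdfy1 was high in both Lp groups and in all grey groups, Tnfsf10 was high in both Lp groups alone, and Ciart was low in the Lp wild type group alone (mean 22.8).

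The other groups of the series placed these genes into distinct patterns. For the 30 largest changes (15 each way), the mean of Lp heterozygotes lay nearer to Lp wild type than to B6 in 22 genes, and so did the mean of CBA mice in 23, of Cd wild type mice in 17, of curly tail (ct) mice in 17 and of Cd heterozygotes in 12. The Pax3 and Apob heterozygote means did so in 1 and 6 genes. Crym, Tmem87a, Corin, Asic5, Vcpkmt and Tmem267 went with Lp wild type in Lp heterozygotes, CBA and ct mice and with B6 in both Cd groups. Crym, for example, had means of 633.4 ± 86.41 (SD, n = 4) in Lp heterozygotes, 823.6 in CBA and 725.4 in ct mice, against 119.1 in Cd wild type and 58.11 in B6 mice. Wdfy1, Prelid2, Ocel1, Slc1a2, Ccnf and Pttg1 went with Lp wild type in both Cd groups as well, so that B6, Pax3 and Apob mice stood alone. Ciart and Gpcpd1 were nearer to the B6 mean in all 7 other groups, and Fkbp5, a co-chaperone of the glucocorticoid receptor, went with Lp wild type in Lp heterozygotes alone (means of 487.9 in Lp wild type, 907.6 in Lp heterozygotes and 1527 to 2839 in the 7 other groups). These group patterns are descriptions that use all 4 arrays of each group, the 2 poor arrays included, and were not tested.

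The 12 heterozygote arrays share no mouse with the comparison and gave a test of it. In Lp heterozygotes minus the mean of Pax3 and Apob heterozygotes, 720 of 13184 genes were called (5.46%), 348 higher (2.64%) and 372 lower (2.82%). Of the 722 genes called in Lp wild type minus B6, 567 (78.5%) had the same sign and 183 (25.3%) were called the same way there, while 4 were called the opposite way. Among all genes tested, 61.4% had the same sign in both and 4.52% were called in the heterozygotes with that sign. The number called again was 97 of the 241 called genes of size at least 1 (40.2%) and 20 of the 27 of size at least 2 (74.1%). Crym (2.58 ± 0.35, limma adjusted p = 0.00063), Asic5 (2.93), Tmem87a (2.83), Corin (2.45), Slc1a2 (-2.84), Efhd2 (-2.33), Pttg1 (-2.12) and Tmem267 (-3.23) were called again. The 720 calls depend on the mice, from 220 without Lp heterozygote replicate 2 to 1180 without Apob heterozygote replicate 1, and the 183 became 126 and 209. Lp heterozygote replicate 4 stood apart, with a median signal of 143.9 where the other 35 arrays had 85.49 to 118.4, and without it these counts were 349 and 149.

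**Figure D2:**
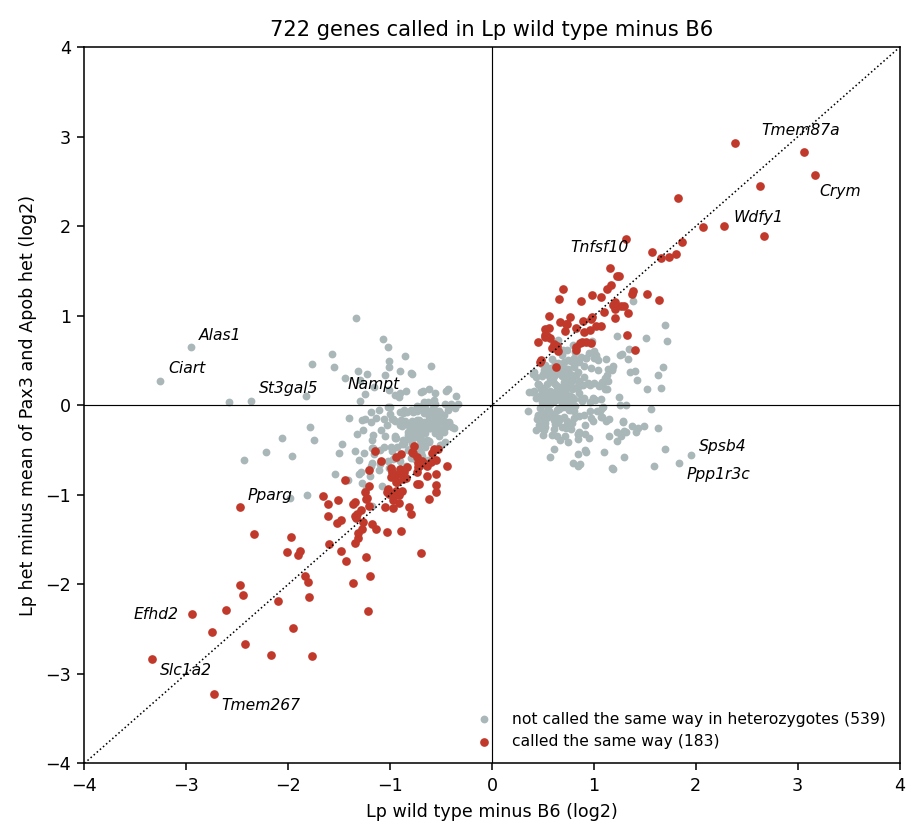
Each point is 1 of the 722 called genes, with its log2 difference in Lp wild type minus B6 on the horizontal axis and in Lp heterozygotes minus the mean of Pax3 and Apob heterozygotes on the vertical axis; the dotted line marks equal differences. The 183 red points were called the same way in both, and Ciart, Alas1, St3gal5 and Ppp1r3c lie far from the dotted line.

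Of 23 tested genes known to vary among inbred mouse strains, 5 were called (5.48% of all genes were), 4 higher and 1 lower, and the list's median difference was -0.06 against 0.04 over all genes. Nnt, the mitochondrial transhydrogenase that is truncated in C57BL/6J mice, read 6453, 8435, 8773 and 8098 in Lp wild type mice and 2858, 3597, 3618 and 2602 in B6 mice (1.32 ± 0.18, limma adjusted p = 7.2e-06). Wdfy1, an endosomal protein that is low in C57BL/6J, read 1375, 1270, 1395 and 1640 against 235.7, 307.8, 283.4 and 275.2 (2.27 ± 0.14, adjusted p = 1e-12). Alad, the second enzyme of heme synthesis, whose gene copy number varies among strains, read 13240 to 18810 against 6316 to 8699 (1.13 ± 0.16). Glo1, a glyoxalase that also varies in copy number, read 21540 to 27650 against 15510 to 19460 (0.52 ± 0.16, adjusted p = 0.048), and it lost the call in 16 of 20 alternative settings. Ahr, the dioxin receptor, read 933.8, 1059, 1028 and 973.6 against 1951, 2773, 2149 and 1306 (-0.97 ± 0.22); with the 2 poor arrays included its adjusted p was 0.12. In all 5 genes the groups did not overlap, and all 5 were called the same way in the heterozygotes, with differences of 2.01 for Wdfy1, 1.30 for Alad, 0.79 for Nnt, 0.85 for Glo1 and -1.06 for Ahr.

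The other 18 members were not called. Ifi202b, an interferon-inducible gene that C57BL/6 mice barely express, read 3.053 to 18.82 in Lp wild type and 3.208 to 20.05 in B6 mice, both below the level for a measured signal. The retrovirus restriction gene Fv1 (0.03 ± 0.32), the complement gene Hc (-0.06 ± 0.21) and the class II gene H2-Ea (-0.50 ± 0.28, group means of 60.76 and 93.46) gave overlapping groups. In the heterozygote contrast 7 of the 23 list members were called higher and 1 lower (2.64% and 2.82% of all genes were). Those called higher included Fv1 (1.39), Ifi202b (1.88) and Apoa2 (0.52, against -0.14 ± 0.14 in Lp wild type minus B6). No gene of 21 tested class I and class II MHC genes was called by limma, and 1 had an unadjusted p below 0.05.

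Tnfsf10, the death ligand TRAIL, set both Lp groups apart from the rest of the series. It read 726.9, 890, 759.4 and 657.3 in Lp wild type mice and 236, 241.4, 198.6 and 282.9 in B6 mice (1.57 ± 0.17, limma adjusted p = 1.4e-07). Its mean was 910.8 ± 167.1 (SD, n = 4) in Lp heterozygotes, and the means of the other groups lay between 224.1 and 306.3. All 3 of its tested probe sets rose (1.57, 1.78 and 1.94). Bid, a proapoptotic protein cleaved downstream of death receptors, fell in the same mice (-1.44 ± 0.18), to 188.9 in Lp wild type and 192.6 in Lp heterozygotes from 541.9 in B6, while further probe sets gave -1.20 and -2.07. Unlike Tnfsf10, Bid did not set the Lp groups apart, as its means in ct (327.7) and CBA mice (331.6) were also below B6. Those of the Pax3, Apob and Cd groups ran from 600.9 to 964.8.

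The circadian clock list was lower. Of 19 tested clock and clock output genes, 9 were called lower and none higher, and the median of the 19 was -0.53 (all genes 0.04, with 2.66% called lower). At an unadjusted p below 0.05, 2 were higher and 11 lower. Ciart, a repressor of Clock and Arntl, read 15.09, 15.9, 19.62 and 40.6 in Lp wild type mice and 282.7, 626.7, 478.8 and 310.1 in B6 mice (-3.25 ± 0.52, limma adjusted p = 0.00011). Usp2, a rhythmic deubiquitinase, read 537.2, 234.1, 236 and 952.6 against 1102, 1950, 3495 and 1382 (-2.06 ± 0.38), and Dbp, a PAR bZIP transcription factor that is a direct clock target, read 3265, 1129, 2385 and 5434 against 5543, 8319, 8715 and 4777 (-1.32 ± 0.28). Lp wild type replicate 4 was the highest of its group in all 3, and for Dbp it lay above the lowest B6 mouse. The limma fit to the 8 compared arrays alone lost the call of Dbp (adjusted p = 0.065).

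The period genes, which encode repressors of the clock, were all lower. Per1 read 122, 159.4, 236.6 and 442.4 in Lp wild type mice and 451.9 to 612.4 in B6 mice (-1.19 ± 0.33). Per2 read 194.2, 282.2, 178.4 and 166.6 against 350.5 to 613.6 (-1.17 ± 0.31), and Per3 read 166.5 to 225.9 against 278.9 to 578 (-0.86 ± 0.25). The groups did not overlap in any of the 3. The other tested probe sets gave -0.22 and -0.93 for Per2 and between -0.995 and 0.17 for Per3, with none called. The call of Per1 was lost in 7 of 20 alternative settings, 6 of them the removal of 1 mouse (B6 replicates 2, 3 and 4 and Lp wild type replicates 1, 2 and 3). Wee1, a kinase that delays mitosis (-1.16 ± 0.26), Hlf, a relative of Dbp (-1.05 ± 0.26), and Bhlhe40, a repressor (-0.99 ± 0.24), were lower too, with a second probe set of Hlf at 0.03. The activators and the nuclear receptors of the loop gave other values: Arntl -0.13 ± 0.27, Clock 0.23 ± 0.23, Nr1d1 0.56 ± 0.24 and Nr1d2 -0.30 ± 0.16, none of them called. A second probe set of Arntl, of lower mean over all arrays, read 397.7, 855.3, 817.1 and 261.9 against 93.85, 76.09, 119.5 and 238.4 (1.92 ± 0.39, limma adjusted p = 0.0025 over all probe sets), so that Arntl was higher on 1 probe set and not on the other. The repressor Nfil3 read 405.5, 1034, 1037 and 1122 against 408.9 to 494.2 (0.85 ± 0.35, adjusted p = 0.18). The count of 9 fell to 5 without B6 replicate 2 and stayed between 6 and 9 without any other single mouse.

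**Figure D3:**
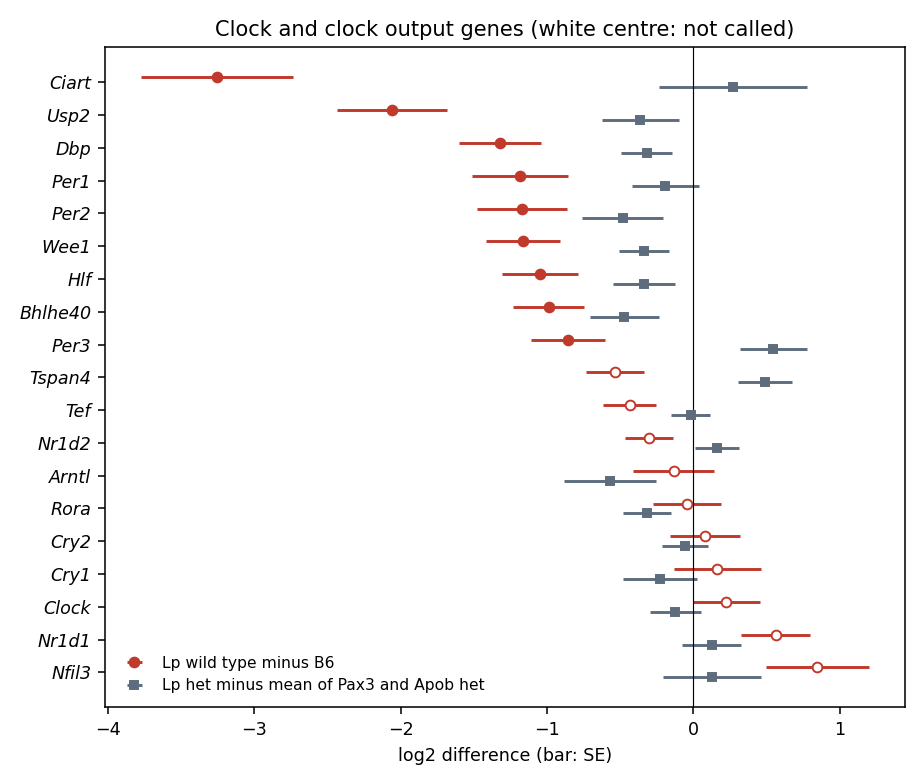
Log2 difference (bar: standard error) of the 19 tested clock and clock output genes in Lp wild type minus B6 (circles, white centre where not called) and in Lp heterozygotes minus the mean of Pax3 and Apob heterozygotes (squares). The 9 filled circles lie between -0.86 and -3.25, while no gene was called in the heterozygotes.

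None of the lower clock genes was called in the Lp heterozygotes, although most had the same sign there. Of the 9 in the limma fit, 7 had the same sign (77.8%), with a median of 0.34 in the lower direction, and 13 of the 19 members were lower, with a median of -0.19. Over all genes 61.4% had the same sign. None had an unadjusted p below 0.05 in the same direction, and 2 of the 19 members had an unadjusted p below 0.05 in either. Ciart (0.27) and Per3 (0.55) were the 2 of opposite sign, and Usp2, Dbp and Per1 gave -0.36, -0.32 and -0.19. The difference between the contrasts was tested in 1 limma fit of the 34 arrays, in which 99 of 13184 genes were called (0.751%). It was -3.52 ± 0.69 for Ciart (adjusted p = 0.011) and -1.40 ± 0.33 for Per3 (adjusted p = 0.039), and 9 of the 19 clock genes had an unadjusted p below 0.05, as did 1684 of all 13184 genes. Usp2 (-1.70 ± 0.50, adjusted p = 0.10) and Dbp (-1.003 ± 0.37, adjusted p = 0.22) did not pass. None of the 23 strain-variant genes was called in that test, and 7 had an unadjusted p below 0.05. Of these 23, Fv1, Apoa2 and Ifi202b were called in the heterozygote contrast and not in Lp wild type minus B6. The mean of the 19 clock genes, set to 0 over the B6 arrays, was -0.78, -0.77, -0.69 and -0.42 on the Lp wild type arrays, -0.31, -0.24, 0.20 and -0.31 on the Lp heterozygote arrays, and -0.15, 0.11, 0.17 and -0.13 on the B6 arrays. The hour of dissection of each mouse was not tested, as the labels do not give it.

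Promoters are shown for 3 of the lower clock genes, because Clock and Arntl act on the E-box CACGTG, a motif that reads the same on both strands. The windows are RefSeq's for GRCm38.p6, from 250 bases before to 50 after the start of the gene, 5′ to 3′ on the strand of the gene, with the E-box in capitals. The Ciart window is chr3:95882179-95882478 on the minus strand, the Per1 window is chr11:69098699-69098998 on the plus strand and the Usp2 window is chr9:44084670-44084969 on the plus strand.
Ciart: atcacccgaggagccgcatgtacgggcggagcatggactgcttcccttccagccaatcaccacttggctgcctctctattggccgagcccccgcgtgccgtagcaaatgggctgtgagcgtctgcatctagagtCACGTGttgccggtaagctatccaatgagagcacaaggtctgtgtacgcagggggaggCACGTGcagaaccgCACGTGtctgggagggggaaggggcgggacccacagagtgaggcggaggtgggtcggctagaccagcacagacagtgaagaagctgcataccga
Per1: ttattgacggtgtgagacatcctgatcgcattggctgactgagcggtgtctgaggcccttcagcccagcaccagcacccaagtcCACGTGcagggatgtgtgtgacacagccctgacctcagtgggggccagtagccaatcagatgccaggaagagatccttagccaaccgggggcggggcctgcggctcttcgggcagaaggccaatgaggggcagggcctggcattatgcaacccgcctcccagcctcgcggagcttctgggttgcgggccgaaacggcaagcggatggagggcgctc
Usp2: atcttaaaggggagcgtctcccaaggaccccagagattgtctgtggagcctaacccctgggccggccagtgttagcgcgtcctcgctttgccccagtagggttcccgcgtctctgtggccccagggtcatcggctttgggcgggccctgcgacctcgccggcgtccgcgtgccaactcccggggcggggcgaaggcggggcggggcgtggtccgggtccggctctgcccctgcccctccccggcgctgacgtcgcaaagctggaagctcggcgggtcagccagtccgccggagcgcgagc
The Ciart window held 3 E-boxes, which begin 116, 58 and 44 bases before the start, that of Per1 shown here held 1, which begins 166 bases before it, and that of Usp2 held none. A second Per1 window, chr11:69099902-69100201, held none, and neither did the windows of Dbp, Hlf and Per3. Of the 6 clock genes called lower that had a window, 2 held the motif (33.3%). Windows were matched for 16 of the 19 clock genes (all but Per2, Wee1 and Bhlhe40), and 5 of the 16 held the motif (31.2%): Ciart, Per1, Cry1, Tef and Tspan4, of which the first 2 were called. The share was 8.09% over all 27025 genes with a window, 11.4% over 10636 tested genes, 11.5% over 295 genes called lower and 11.5% over 304 genes called higher.

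Transcripts outside the clock list also fell in Lp wild type mice and gave a smaller or opposite difference in the heterozygote contrast. Alas1, the rate-limiting enzyme of heme synthesis in liver, read 1538, 1340, 2202 and 3480 in Lp wild type mice and 11670, 20140, 13750 and 18630 in B6 mice (-2.96 ± 0.39, limma adjusted p = 6.4e-06), and a second probe set gave -4.23 ± 0.51. The main probe set read 14600, 5991, 20890 and 9635 in Lp heterozygotes, and the difference between the contrasts was -3.61 ± 0.52 (adjusted p = 0.00084). The second probe set did not follow it: it read 3709 to 10420 in B6 mice and 1092, 594.9, 1849 and 834.2 in Lp heterozygotes, so that the 2 probe sets were 2.47 apart in the heterozygote contrast (limma adjusted p = 0.00077) and 1.27 apart in Lp wild type minus B6. The group means of the main probe set elsewhere ran from 4123 in Cd wild type mice to 13660 in CBA mice. Of 11 tested genes of heme synthesis and breakdown, Alad alone was called higher and Alas1 alone lower, 2 were higher and 2 lower at an unadjusted p below 0.05, and the list's median was -0.09. Over all genes 2.81% were called higher and 2.66% lower.

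St3gal5, the ganglioside GM3 synthase, read 1596, 1102, 959.6 and 2493 against 5810 to 11060 (-2.37 ± 0.31), and 2390 to 7471 in Lp heterozygotes. The contrasts differed by -2.41 ± 0.41 (limma adjusted p = 0.0039). Its low level was not particular to Lp wild type mice (mean 1538). The CBA and ct means also lay nearer to Lp wild type than to B6, and the lowest mean of another group was 1448. Nampt, the rate-limiting enzyme of NAD salvage, read 914.4, 1215, 924.7 and 860 against 1606 to 3902 (-1.30 ± 0.23), and its other tested probe sets gave -1.27 and -1.15. The contrasts differed by -1.35 ± 0.30 (adjusted p = 0.028). Nceh1, a cholesteryl ester hydrolase (-1.79 ± 0.25), Gpcpd1, a glycerophosphodiesterase (-2.22 ± 0.29), the flavin monooxygenase Fmo2 (-1.02 ± 0.29) and the mitochondrial folate carrier Slc25a32 (-0.91 ± 0.17) fell in Lp wild type mice and differed between the contrasts as well. For Nceh1 the Lp heterozygote mean (870.7) was also far below B6 (2172) and near Lp wild type (612.9). The Apob and Pax3 heterozygote means, 881 and 1201, were below B6 too. Gpcpd1 was lower in the heterozygote contrast too (-0.52), at an unadjusted p below 0.05 and with no call, and the other tested probe sets of Slc25a32 gave -0.16 and -0.65. The main probe set of Gpcpd1 minus its other tested probe sets gave -1.11 (limma adjusted p = 0.020) and -1.08 (adjusted p = 0.0026) in Lp wild type minus B6. For Fmo2 such differences ran from -0.96 to 0.54 with none called, and its probe sets were unequal by the rule given below. Lepr, the leptin receptor, read 459.8 to 603.1 against 1130 to 2384 (-1.75 ± 0.37), and its difference between the contrasts did not pass (adjusted p = 0.22).

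Cyp7a1, the hydroxylase that begins the classic route from cholesterol to bile acids, read 620.8, 735.4, 626.9 and 2105 in Lp wild type mice and 1843, 10530, 10950 and 3967 in B6 mice (-2.58 ± 0.57, limma adjusted p = 0.0054), and a second probe set gave -2.33 ± 0.46. The B6 mice spread widely and the groups overlapped, since Lp wild type replicate 4 lay above B6 replicate 1. Its heterozygote contrast was 0.04 and the contrasts differed by -2.62 ± 0.76 (adjusted p = 0.092). Cyp7a1 alone was called among 20 genes of bile acid synthesis and transport, where 5.48% of all genes were called.

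PPAR alpha targets were lower in Lp wild type mice, and least so in replicate 4. Of 16 tested fasting-inducible targets, 7 were called lower (2.66% of all genes were) and none higher, with a median of -0.90, and 13 were lower at an unadjusted p below 0.05, as were 1124 of all 13184 genes. Vnn1, a pantetheinase, read 4414, 4210, 6260 and 10040 in Lp wild type mice and 13490 to 20760 in B6 mice (-1.47 ± 0.26, limma adjusted p = 0.0004). Acot1, a cytosolic acyl-CoA thioesterase, read 375.7, 474.4, 1385 and 4115 against 3630 to 4291 (-1.96 ± 0.51), so that Lp wild type replicate 4 lay within the B6 range. Cyp4a14, a fatty acid omega-hydroxylase, read 3396, 10680, 13990 and 29750 against 29180 to 34960 (-1.51 ± 0.48) and was not called (adjusted p = 0.057). Cyp4a31, another of these hydroxylases, had group means of 962.7 and 2250 (-1.30 ± 0.38), and the peroxisome factor Pex11a read 3006 to 6932 against 6555 to 8410 (-0.90 ± 0.22). Acot4 (-0.95), the carnitine palmitoyltransferase Cpt1a (-0.89) and the transcription factor Creb3l3 (-0.43) were the other called members. The other tested probe sets of Cpt1a gave 0.20 and 0.39, so that it has no single direction on this array, whereas a second probe set of Vnn1 gave -1.46.

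The number of calls in this list turned on single mice. It was 11 without Lp wild type replicate 4, 1 without Lp wild type replicate 2, and 2 to 4 without Lp wild type replicate 1 or 3 or B6 replicate 1, 2 or 4, and 1 with the 2 poor arrays included. Of 25 tested genes of fatty acid oxidation and ketogenesis, 5 were called lower (2.66% of all genes were) and none higher (median -0.37). That count was 7 without Lp wild type replicate 4, 0 to 3 without any other single mouse, and 0 with all 36 arrays. The mean of the 16 PPAR alpha targets relative to B6 was -1.40, -1.10, -0.73 and -0.22 on the Lp wild type arrays, against -0.15 to 0.11 on the B6 arrays. Most arrays of other groups were lower than B6 in this list. The mean was -1.004 to -0.34 on the Lp heterozygote arrays, -1.19 to -0.77 on the arrays of both Cd groups and -0.67 to -0.36 on the Apob arrays, while ct replicate 4 (0.25) lay above every B6 array and Pax3 heterozygote replicate 3 (0.09) within their range. On the CBA arrays it was -1.37 to -0.72, as low as in Lp wild type mice. It was -0.40, -0.70 and -1.51 on ct replicates 1, 2 and 3, and -0.79, -0.49 and -0.32 on Pax3 heterozygote replicates 1, 2 and 4. The order of the Lp wild type arrays, with replicate 4 highest, was the same for the clock mean. On Lp wild type replicate 4 the 3' to 5' ratios of actin and pyruvate carboxylase, 2.811 and 15.65, were the highest of its group (1.894 to 2.227 and 8.461 to 9.799 on the other 3). On B6 replicate 3 these ratios were 2.296 and 26.59, the highest of the B6 group. The part of the ratios in the result was not tested. None of the 7 was called in the heterozygotes by limma, and 1 had an unadjusted p below 0.05 in the same direction.

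**Figure D4:**
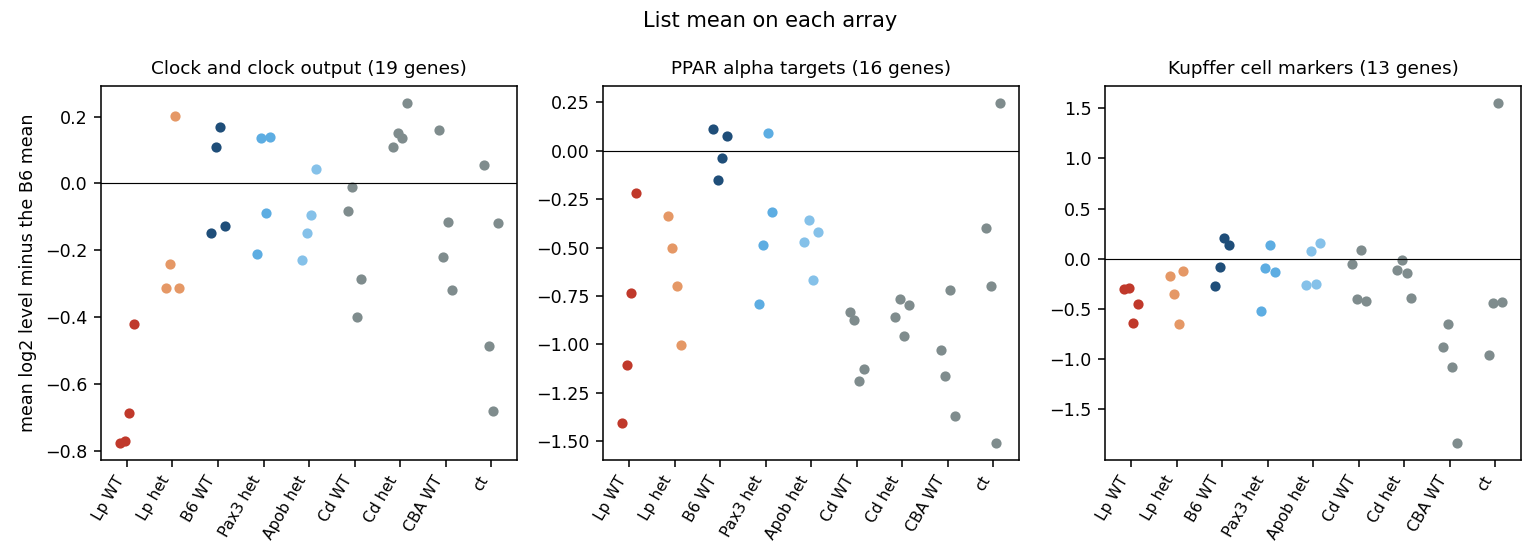
Mean log2 level of 3 gene lists on each of the 36 arrays, set to 0 over the 4 B6 arrays; colours as in the plot of signals by group. The clock mean lay between -0.78 and -0.42 in Lp wild type mice, and their PPAR alpha mean between -1.40 and -0.22; ct replicate 3 and CBA replicate 4, left out of the fit, are drawn.

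In lipid synthesis, Pparg, a nuclear receptor of lipid storage, read 12.42, 19.41, 15.76 and 24.58 in Lp wild type mice and 244.8, 204.4, 199.2 and 172.7 in B6 mice (-2.48 ± 0.26, limma adjusted p = 1.3e-07). The Lp values lie near background. Lp heterozygotes and Apob heterozygotes had means of 43.42 and 37.92, while Pax3 heterozygotes had 312.9. Of 26 tested genes of fatty acid and triglyceride synthesis, Pparg, the phosphatidate phosphatases Lpin1 (-1.77 ± 0.51) and Lpin2 (-0.71 ± 0.21), and the desaturase Fads2 (-0.89 ± 0.27) fell and the acyltransferase Agpat2 rose (0.59 ± 0.17), and the median was 0.04. Lpin1 lost the call in 8, Lpin2 in 7 and Fads2 in 12 of 20 alternative settings. Of 20 cholesterol synthesis genes and SREBP2 targets, Hmgcs1, the synthase of hydroxymethylglutaryl-CoA, fell from 12500 ± 4291 (SD, n = 4) to 4085 ± 1439 (-1.61 ± 0.32), and its other tested probe sets gave -1.67, -1.83 and -1.91. The sterol carrier Stard4 fell as well (-0.75 ± 0.20), and the list's median was -0.22. The shares over all genes, for both lists, were 2.66% called lower and 2.81% called higher.

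In glucose metabolism 2 of 23 genes rose and 2 fell, where 2.81% of all genes were called higher and 2.66% lower. Ppp1r3c, a subunit that brings protein phosphatase to glycogen, read 5246, 5066, 4669 and 3657 in Lp wild type mice and 859.4, 1338, 1699 and 1364 in B6 mice (1.83 ± 0.40, limma adjusted p = 0.0049). In the heterozygote contrast it gave -0.65, and the contrasts differed by 2.48 ± 0.54 (adjusted p = 0.024). Apob heterozygotes were also high, with 2627 to 6316. Gys2, the liver glycogen synthase, read 4707 ± 897.5 (SD, n = 4) against 9152 ± 1293 (-0.97 ± 0.19), Txnip, a thioredoxin-binding protein induced by glucose, fell (-1.28 ± 0.26), and Pklr, the liver pyruvate kinase, rose (1.00 ± 0.31, adjusted p = 0.049), a call lost in 15 of 20 alternative settings.

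Markers of Kupffer cells, the resident macrophages of the liver, were lower in Lp wild type mice. Of 13 tested, 5 were called lower (2.66% of all genes were) and none higher, 8 had all 4 Lp values under all 4 B6 values (5.48% of all genes did), and the median was -0.56. Cd5l, a secreted scavenger receptor protein, read 3649 ± 472.9 (SD, n = 4) against 6779 ± 1499 (-0.87 ± 0.17, limma adjusted p = 0.0017). The complement subunits C1qb (-0.73 ± 0.22) and C1qc (-0.65 ± 0.20), the growth factor receptor Csf1r (-0.56 ± 0.14) and the complement receptor Vsig4 (-0.56 ± 0.16) were the others, although the other tested probe sets of C1qb gave -0.03 and -0.12, and Clec4f, a defining lectin, read 2416 to 3425 against 3509 to 5723 (-0.56 ± 0.18, adjusted p = 0.066). All 5 were lower in the heterozygote contrast at an unadjusted p below 0.05, and Cd5l (-0.83) and Csf1r (-0.48) were called there. The count of 5 fell to between 1 and 3 without B6 replicate 2, 3 or 4 or any 1 of the Lp wild type mice, and to 0 with the 2 poor arrays included. In whole liver, fewer cells of a type and less RNA per cell cannot be told apart. The list mean relative to B6 ran from -0.64 to -0.29 on the Lp wild type arrays and from -0.27 to 0.21 on the B6 arrays. It was -1.83 to -0.65 on the CBA arrays, and -0.95, -0.44, 1.55 and -0.43 on the ct arrays. The other ranges were -0.64 to -0.12 (Lp heterozygotes), -0.42 to 0.08 (both Cd groups) and -0.52 to 0.16 (Pax3 and Apob heterozygotes).

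Other lists of cell types and liver functions gave few calls. No gene was called by limma among 8 hepatocyte, 10 stellate cell, 8 endothelial, 4 cholangiocyte, 6 B cell, 6 T and NK cell and 6 neutrophil markers, and 0, 1, 1, 0, 0, 0 and 1 of them had an unadjusted p below 0.05. All 8 hepatocyte markers were lower (median -0.15), 3 of them with no overlap, as were 5.48% of all genes. In the heterozygote contrast all 8 were higher and 4 were called higher, where 2.64% of all genes were. Of 4 tested pancreas markers, the elastase Cela2a was called lower, at 13.88 to 71.06 against 112.7 to 164.2, which is near the lower limit for testing. No gene was called among 27 cytochromes of the Cyp1a, Cyp2 and Cyp3a families, 12 female-biased and 11 male-biased liver genes and 20 apolipoprotein and lipoprotein genes, where 4, 3, 2 and 1 had an unadjusted p below 0.05. Lists with a single call were the 32 complement and coagulation genes (Cfhr2, a factor H related gene, -0.84), 27 ribosomal protein genes (Rps6, -1.21), 19 genes of ER stress and heat shock (Hyou1, a chaperone, 0.97 and -0.31 on its 2 tested probe sets) and 14 planar polarity and neural tube genes (Dvl1, an adaptor of Wnt signalling, 0.62). Over all genes 5.48% were called. Rps6 went against its list, in which 24 of 27 genes were higher (median 0.12). In the heterozygote contrast 25 of the 27 ribosomal protein genes were higher, with 11 called higher and 1 lower (2.64% and 2.82% of all genes were). Of 46 interferon-stimulated genes 3 fell, where 2.66% of all genes were called lower: Rsad2 (viperin, -1.42 ± 0.38), Usp18 (-0.83 ± 0.24) and Irf7 (-0.80 ± 0.23). These calls were 0 without Lp wild type replicate 1 or 3 or B6 replicate 3 or 4, and 1 without Lp wild type replicate 4 or B6 replicate 2. Rsad2 was unequal between its probe sets. Its main probe set minus the others gave -0.86 (limma adjusted p = 0.073) and -0.97 (adjusted p = 0.015). Of 34 folate and methionine genes, the folate hydrolase Ggh (0.69 ± 0.20) and the glycine decarboxylase Gldc (0.81 ± 0.23) rose, and Slc25a32 and the folate receptor Folr2 (-0.61 ± 0.17) fell. Of all genes 2.81% were called higher and 2.66% lower. The call was lost in 9 of 19 alternative settings for Ggh, 7 of 20 for Gldc and 5 of 19 for Folr2.

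All probe sets of a gene were compared to mark differences that may come from the sequence under the probes. Of the 722 called genes, 383 had 2 or more tested probe sets. All probe sets had the same sign in 254 of them and all were called the same way in 64, while 6 had a probe set called the opposite way. By the rule that 1 probe set was called at a size of at least 1 and another gave under 0.5 in that direction, 166 genes were unequal, 64 of them among the called genes. The difference between the main probe set and another of the same gene was itself tested in 9718 pairs, of which 568 were called (5.84%), in 507 genes. That count was 185 with the 2 poor arrays included and 312 to 377 without B6 replicate 1 or 4 or Lp wild type replicate 1 or 4.

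The most unequal genes had 1 or more probe sets that were low in 1 line and several times higher in the other. Snx6, a sorting nexin of endosomes, read 20.61 ± 19.06 (SD, n = 4) in Lp wild type and 614.3 ± 60.52 in B6 mice on 1 probe set (-3.95 ± 0.25), while its other tested probe sets gave -0.79, -0.29 and 0.19. Prdx2, a cytosolic peroxiredoxin, rose by 0.74 on its main probe set (9067 against 5411) and read 134.1 ± 30.58 against 1240 ± 353.9 on another (-2.98 ± 0.22), so that the probe sets gave opposite calls. Paip1, a partner of the poly(A) binding protein, read 599.2 ± 21.7 against 53.18 ± 13.21 on 1 probe set (3.04 ± 0.23) and gave 1.92 on a second, while its main probe set read 1062 against 1335 (-0.32 ± 0.12). Lin7c, a scaffold of cell junctions, gave -3.64, -1.91, -0.92 and -0.45. Zfp991, a zinc finger gene, gave 1.66, -1.35 and 0.00. Arhgap26 gave -2.70 on 1 probe set and 0.14, 0.30 and 0.39 on the others. Lin7c was lower on all 4 probe sets by unequal amounts, and the other 5 genes have no single direction on this array.

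Several of the largest changes above belong here. Slc1a2 gave -3.33 on its main probe set, -1.14 on another and -0.04 on the last, and Ccnf gave -2.62 and -0.23. Wdfy1 gave 2.27, 2.89 and 1.93 on 3 probe sets and -0.23 and 0.50 on 2 whose means were under 100 in both lines. Prelid2 gave 2.07 and 0.07, Alad 1.13 and 0.05, and Erdr1 -2.43 and -0.37. Efhd2 gave -2.94 and -0.91, both called. Glo1 gave 1.66, 0.67, 0.52 and -0.20, with the first alone called over all 27022 probe sets tested (4.66% of them called). Crym, Tmem87a, Corin, Asic5 and Ciart had 1 tested probe set each, so that no second tested probe set could be compared. Whether their differences are of the transcript or of the probes was not tested. The Ciart probe set read 266.7, 483.4, 873.5 and 180.2 in Lp heterozygotes of the same line, against 15.09 to 40.6 in Lp wild type mice.

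**Figure D5:**
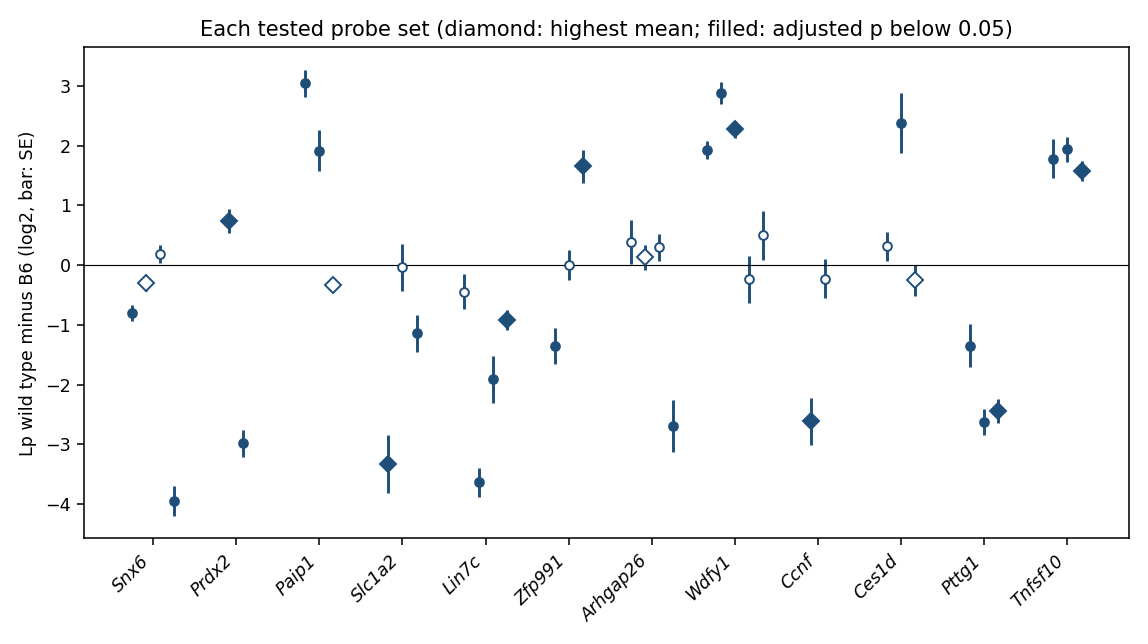
Log2 difference (bar: standard error) of each tested probe set of 12 genes in Lp wild type minus B6; the diamond is the probe set of highest mean, and filled symbols have a limma adjusted p below 0.05 over all probe sets. Snx6, Prdx2, Paip1, Zfp991 and Arhgap26 hold probe sets far apart, whereas the 3 probe sets of Pttg1 and of Tnfsf10 lie on 1 side of 0.

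Some of the unequal probe sets were called again in the heterozygotes. Of the 568 called pairs, 375 (66%) had the same sign in the heterozygote contrast, against 58.4% of all 9718 pairs, and 89 (15.7%) were called the same way, where 1.7% of all pairs were called with the same sign; of the 223 that were at least 1 apart, 68 were called again (30.5%). In the heterozygotes 179 of 9718 pairs were called in all (1.84%). The pairs of Snx6 (3.66 in Lp wild type minus B6, 3.90 in the heterozygotes), Prdx2 (3.72 and 3.77), Zfp991 (3.01 and 3.90), Lin7c (2.72 and 2.88) and Paip1 (-3.37 and -2.47) were nearly as far apart in both. Ces1d, a carboxylesterase, was an exception: its probe sets were -2.64 apart in Lp wild type minus B6 and 0.80 apart in the heterozygotes, where the pair was not called. Of the 64 called genes with unequal probe sets, 29 (45.3%) were called the same way in the heterozygotes, against 59 of the 319 other called genes that had 2 or more probe sets (18.5%). The unequal genes also had the larger differences, with a median size of 1.157 against 0.7524, and the part of size in these shares was not tested.

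At the other end, 12 of 2401 genes with 3 or more tested probe sets had every one called in 1 direction, 2 of them higher. Tnfsf10 was one of the 2. Pttg1 gave -2.44, -2.63 and -1.35, Abcd2, a peroxisomal transporter of fatty acids, gave -1.10, -1.13, -1.54 and -2.001, and Mmd, a membrane protein of the progestin receptor family, gave -1.09, -0.73 and -0.79. Hmgcs1, Nampt, Lepr, Nceh1, Bid and Stard4 were others. Pttg1, Bid, Hmgcs1, Mmd and Tnfsf10 were called the same way in the heterozygotes, and Nampt (0.05), Nceh1 (-0.24), Lepr (-0.39), Abcd2 (-0.65) and Stard4 (-0.06) were not.

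Some called genes lay side by side. Of 720 called genes with a place in the gene order of GRCm38.p6, 112 (15.6%) had a called neighbour, against 10.3% of genes that were not called, and 6 runs of 3 called genes were found, with no test. In the run Pctp, Mmd and Hlf all 3 fell (-1.17, -1.09 and -1.05), and in Tedc2, Ccnf and Abca3 the differences were -2.01, -2.62 and 1.21. In Dvl1, Cptp and Ints11 all 3 rose (0.62, 0.66 and 0.61). Neighbours share both haplotype and, at times, overlapping transcripts, and neither was tested here.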

How the data were processed

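RNA of 36 livers was hybridised to Affymetrix expression arrays, 1 array per mouse, from biotinylated cRNA made of 3 micrograms of total RNA. The authors deposited linear signal intensity computed with MAS5, per the submitters' processing notes (no version given). Each array had a trimmed mean of 500 (2% left out at each end), computed here from the values. Of 45101 probe sets, 64 were controls, 34945 had 1 gene symbol, 932 several and 9160 none here; symbols were updated through the RefSeq table of GRCm38.p6 for 34741.

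Here log2(signal + 23) was fitted with limma 3.58.1 in R 4.3.3, 1 mean per group over 34 arrays, with a variance trend, two-sided tests and Benjamini-Hochberg adjustment below 0.05. CBA replicate 4 and ct replicate 3 (GAPDH 3' to 5' ratios of 52.5 and 1.72) were left out. Probe sets with a mean log2 above 6.4 (the 40th percentile) were tested, and the probe set of highest mean stood for each of 13184 genes of 18193 symbols. Pairs of probe sets of 1 gene were tested as log2 differences on the same array. The heterozygote contrast was fitted on its own 12 arrays. On simulated data the procedure called 71% of 2-fold and 95% of 4-fold changed genes among 13184, with 7 false calls, and 51% and 94% among 9718 pairs. Precision is limited by 4 arrays per group.

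The part compared, the gene lists and the tests were chosen with earlier results of these data known. The tests of the difference between the contrasts and of probe set pairs in the heterozygotes were added after seeing the data. Genes were named by rule: Vangl2; the 15 largest non-overlapping called changes each way; up to 4 called members of each list with 2 or more; every tested member of the strain-variant list; the 10 most unequal genes; and the 10 with 3 or more probe sets all called 1 way. Other genes (Per2, Per3, Wee1, Hlf, Bhlhe40, Arntl, Clock, Nr1d1, Nr1d2, Nfil3, Pex11a, Creb3l3, Cyp4a14, Agpat2, Vsig4, Clec4f, Alb, Apoa1, Cela2a, Cyp7a1, Cfhr2, Rps6, Hyou1 and Dvl1) were named as list members after their values were seen. Alternatives were quantile normalization, median centring, offsets of 12 and 46, no filter and the 60th percentile, all 36 arrays, only the 8 compared arrays, every probe set in place of 1 per gene, plain _at probe sets, no variance trend, a replicate block and the removal of each array. Figures were drawn with matplotlib 3.10.9.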

Additional observations from a re-analysis of the deposited data

Results flagged for a closer look

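Of 222 groups of 4 values (111 named genes, Lp wild type and B6), 8 (3.6%) held an array set apart from the other 3 by Dixon's test at the 95% level, where chance gives about 1 in 20. In B6 replicate 2, Vangl2 read 157.8 (227.7 to 234.7 on the other arrays of the group), Ide 2339 (2849 to 2955) and Rrm2 559.7 (389.2 to 410.8). In B6 replicate 3, Vcpkmt read 181 (272.7 to 280.8) and Il1rn 342.8 (468.7 to 497.1). In B6 replicate 4, Gsto1 read 8207 (10250 to 10580). In Lp wild type replicate 2, Gys2 read 3378 (5037 to 5349), and Ifi202b read 18.82 (3.053 to 4.896), which is below the level for a measured signal.

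The difference in Lp wild type minus B6 departed from that in Lp heterozygotes minus the mean of Pax3 and Apob heterozygotes, by a limma test of the difference over 34 arrays, in 9 of the named called genes. The departures were 2.48 for Ppp1r3c, -3.52 for Ciart, -3.61 for Alas1, -2.41 for St3gal5, -1.70 for Gpcpd1, -1.67 for Fmo2, -0.999 for Slc25a32, -1.35 for Nampt and -1.55 for Nceh1. Across all genes 99 passed, of which 62 were among the 722 called genes (8.59%). The mutations of the 3 heterozygote groups enter this difference, and their part in it was not tested.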

How the results depend on the processing

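The 722 calls in Lp wild type minus B6 ranged from 454 to 587 without any 1 array, were 272 with all 36 arrays and 1260 over all probe sets, and stayed between 553 and 756 in the other settings (576 with the 8 arrays alone, 574 with median centring, 756 with quantile normalization). The 568 called probe set pairs became 185 with all 36 arrays, 249 with the 8 arrays alone and 143 with plain _at probe sets, and ranged from 312 to 581 without any 1 array. The 720 calls of the heterozygote contrast became 1302 with 34 arrays in the fit and ranged from 220 to 1180 without any 1 array. Replicate numbers did not pair the mice (correlations from -0.089 to 0.097 between same-numbered arrays); with a replicate block 638 genes were called, 615 of them shared, and 463 in the heterozygote contrast. Of 88 called named genes 41 kept the call in every setting that gave a value and 47 lost it in at least 1; the cause was not tested. Of 23 uncalled genes Snx6 was called once, through another probe set. Signs that turned were all of uncalled genes. With quantile normalization Gbp2b gave -0.0135, Idh1 -0.055 and Fv1 -0.069. Without any 1 array, Vangl2 ranged from -0.56 to 0.16, Ifi202b from -0.24 to 0.064, Gbp2b from -0.43 to 0.25, Idh1 from -0.027 to 0.14, Fv1 from -0.10 to 0.31 and Hc from -0.15 to 0.11. Signals below about 61 are near background and bound no fold.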

Other observations

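Ifi202b, which lies on chromosome 1 as Vangl2 does, was near background in all Lp wild type mice (3.757, 18.82, 3.053 and 4.896) but read 175.8, 212.4 and 177.4 on the first 3 Lp heterozygote arrays and 4.291 on the fourth. The means of both Cd groups were 280.6 and 248, and that of CBA mice was 383.2. Lp heterozygote replicate 4 thus read like the Lp wild type and B6 mice at this gene and unlike the other 3 Lp heterozygotes, and whether its label holds was not tested. The heterozygote contrast uses this array, and 349 genes were called in it without the array, where 720 were called with it.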
